A study of Mus musculus with 9 samples.

Results

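The 10 genes described here were *Bcl2*, *Bcl2l1*, *Mcl1*, *Bcl2l11*, *Bid*, *Bad*, *Bik*, *Bmf*, *Birc2* and *Birc3*, which are 8 genes of the Bcl2 family and 2 inhibitor of apoptosis (IAP) genes. They were taken by symbol from the GENCODE M1 annotation, by a rule that uses no measured value, though the list was drawn up with earlier results of these data known. Of 13643 genes listed in either of 2 deposited tables, 13259 were in both. All 10 of the genes described here were found, 9 of them in both. *Bik* was listed in the table of shRNA 2 and not in that of shRNA 1.

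AML12 cells, an immortalized line of mouse hepatocytes, gave 3 groups of 3 RNA-seq libraries. Control cells were compared with cells infected for 5 days with a lentivirus carrying Srrm2 shRNA 1 or Srrm2 shRNA 2, short hairpins against *Srrm2*, which encodes a scaffold protein of nuclear speckles. All cells were grown in DMEM/F12 with 10% fetal bovine serum, ITS supplement and 0.1 μM dexamethasone, a glucocorticoid. Of the treatment of the control group, the labels say no more than that it is a control. The value used for each gene is the authors' mean normalized count in each table, pooled over the control libraries and those of 1 hairpin, so it has no spread between replicates, no single library can be shown and no test between knockdown and control was made. The depth of each library is unknown.

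Proteins of the Bcl2 family decide whether the outer mitochondrial membrane is opened in apoptosis. Bcl2, Bcl-x (*Bcl2l1*) and Mcl1 hold the effectors Bax and Bak in check. The BH3-only proteins Bim (*Bcl2l11*), Bid, Bad, Bik and Bmf bind these guardians or act on the effectors. cIAP1 (*Birc2*) and cIAP2 (*Birc3*) are ubiquitin ligases of the TNF receptor complex. Hepatocytes are known to depend on Bcl-x and Mcl1, and to use Bid, which caspase-8 cleaves, to carry a death receptor signal to mitochondria.

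Several of these genes are spliced into proteins of different activity, and the tables add all transcripts of a gene together. GENCODE M1 gives 5 protein-coding transcripts for *Bcl2l11* and 9 for *Bcl2l1*, but 1 each for *Bcl2*, *Mcl1*, *Bik* and *Birc2*. The sequences at the point where the 3 best known Bim proteins part, and at the join that makes the long, protective form of Bcl-x, are shown because no value below separates these forms. Each line has the 15 coding bases before that point or join in lower case and the 15 that follow in the transcript in capitals, from GENCODE M1 transcripts on NCBIM37 (mm9).
Bim EL: agacagaaccgcaagGTAATCCCGACGGCG
Bim L: agacagaaccgcaagACAGGAGCCCGGCAC
Bim S: agacagaaccgcaagCTTCCATACGACAGT
Bcl-xL: gagaacggcggctggGACACTTTTGTGGAT
The Bim lines share their left side, which ends at 127954492 in exon 2 (chromosome 2, + strand). Bim EL reads on without a join, while Bim L skips the next 168 bases (127954493 to 127954660). Bim S skips these and the 90 bases after them (127954661 to 127954750) and joins the exon that starts at 127972821. Their coding sequences have 591, 423 and 333 bases. The Bcl-xL join runs on the − strand of chromosome 2 from the end of exon 2 at 152655163 to the start of exon 3 at 152608018.

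As a check of the label, all 10 hepatocyte markers were listed in both tables, and 8 had pooled means of at least 100 in both. *Apob* was the highest at 20192 and 22608, and *Apoa1* the lowest at 39.4 and 38.9 in the tables of shRNA 1 and shRNA 2. Of 10 markers of leukocytes, Kupffer cells, endothelium and stellate cells, 3 were listed in each table, between 5.30 and 29.8. Of 3 bile duct markers, *Krt19* (2851 and 2753) and *Sox9* (670 and 750) were high and *Epcam* was not listed. Among the hepatocyte markers only *Apob* had higher pooled means than *Krt19*, and *Alb* had 2151 and 1814. The part of the bile duct markers in the results was not tested. *Srrm2* itself had pooled means of 3428 and 3759, which do not show the knockdown, since each mixes control and knockdown libraries.

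Among the 3 anti-apoptotic members, *Bcl2l1* and *Mcl1* were abundant and *Bcl2* was low. *Bcl2l1* (ENSMUSG00000007659.11, chromosome 2, − strand, 152593052 to 152657464) had an authors' mean normalized count of 2429 in the table of shRNA 1 and 2466 in that of shRNA 2. *Mcl1* (ENSMUSG00000038612.9, chromosome 3, + strand, 95462643 to 95467099), whose protein is short-lived, had 1333 and 1391. *Bcl2* (ENSMUSG00000057329.6, chromosome 1, − strand, 108434755 to 108610851), the founding gene of the family, had 174 and 157. The order of the 3 genes was the same in both tables.

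Levels of different genes were compared per kilobase of merged exons. On this scale *Bcl2l1* stood at 513 and 521 mean normalized counts per kb, which placed it at percentiles 96.4 and 96.4 of all genes in the tables of shRNA 1 and shRNA 2. *Mcl1* stood at 383 and 399 per kb, at percentiles 94.9 and 94.9. *Bcl2*, spread over 7191 bases of exon, stood at 24.1 and 21.8 per kb, at percentiles 36.7 and 33.8, below the medians over all genes of 43.1 and 44.8. The level of *Bcl2l1* per kb was therefore 1.34 and 1.30 times that of *Mcl1*, and 21.3 and 23.8 times that of *Bcl2*. With the longest annotated transcript as the length, *Bcl2l1* was 2.63 and 2.56 times *Mcl1* and 41.6 and 46.7 times *Bcl2*, because exons of its many transcripts add up to 4734 bases while its longest transcript has 2417. *Bcl2l1* made up 55.8% and 55.3% of the summed levels per kb of the 3 genes by merged exons, and 71.2% and 70.8% by the longest transcript.

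The 5 BH3-only members spanned a wide range, with *Bid* the highest and *Bik* the lowest. *Bid* (ENSMUSG00000004446.6, chromosome 6, − strand, 120841948 to 120866871) had pooled means of 661 and 736, or 186 and 207 per kb. *Bmf* (ENSMUSG00000040093.9, chromosome 2, − strand, 118354493 to 118375423), a BH3-only protein linked to the cytoskeleton, had 438 and 463, or 83.3 and 88.1 per kb. *Bad* (ENSMUSG00000024959.7, chromosome 19, + strand, 7016351 to 7026388), which growth factor signalling silences by phosphorylation, had 171 and 171, or 85.2 and 85.3 per kb. *Bad* and *Bmf* were therefore neighbours per kb, with *Bad* at 1.02 and 0.97 times *Bmf* by merged exons and at 1.25 and 1.18 times by the longest transcript. *Bcl2l11* (ENSMUSG00000027381.10, chromosome 2, + strand, 127951774 to 127988283), the gene of Bim, had 347 and 401, or 43.3 and 49.9 per kb, at percentiles 50.1 and 52.7 of all genes. *Bik* (ENSMUSG00000016758.3, chromosome 15, + strand, 83357292 to 83375065) had a pooled mean of 5.53 in the table of shRNA 2, or 5.86 per kb, at percentile 16.7.

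The level of *Bid* per kb was 2.18 and 2.43 times that of *Bad*, 2.23 and 2.35 times that of *Bmf*, and 4.30 and 4.15 times that of *Bcl2l11*. Summed per kb, the 3 anti-apoptotic members reached 920 and 942, and the BH3-only members 398 and 437, with *Bik* in the second sum alone. The first group was 2.31 and 2.16 times the second by merged exons, and 2.54 and 2.37 times by the longest transcript. The sums hold members only and are not a balance of these roles. They leave out the BH3-only genes *Pmaip1* (209 and 185 per kb) and *Bbc3* (54.8 and 80.7), and the anti-apoptotic *Bcl2l2* (89.7 and 85.3) and *Bcl2l10* (4.24 and 5.02). These are RNA levels, and the amounts of the proteins were not measured here.

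*Birc2* and *Birc3* lie side by side on the − strand of chromosome 9, with 13443 bases between them. *Birc2* (ENSMUSG00000057367.6, 7818236 to 7835255) had pooled means of 392 and 445, or 125 and 142 per kb. *Birc3* (ENSMUSG00000032000.10, 7848699 to 7873186), a gene known to be induced by NF-κB, had 289 and 384, or 57.8 and 76.6 per kb. *Birc2* was thus at 2.17 times *Birc3* per kb in the table of shRNA 1 and at 1.86 times in that of shRNA 2. By the longest transcript these ratios were 1.26 and 1.08, so both lengths put *Birc2* above *Birc3*. The longest coding sequences of the pair, of 1839 and 1809 bases, were identical at 75.6% of 1777 aligned bases. Of the 50-base words of their longest coding transcripts, 2.11% for *Birc2* and 1.64% for *Birc3* also occur in a coding transcript of another gene. For the other members the share was at most 0.22%. Few exact matches of this length to other coding transcripts were thus found, and noncoding transcripts and pseudogenes were not searched.

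**Figure D1:**
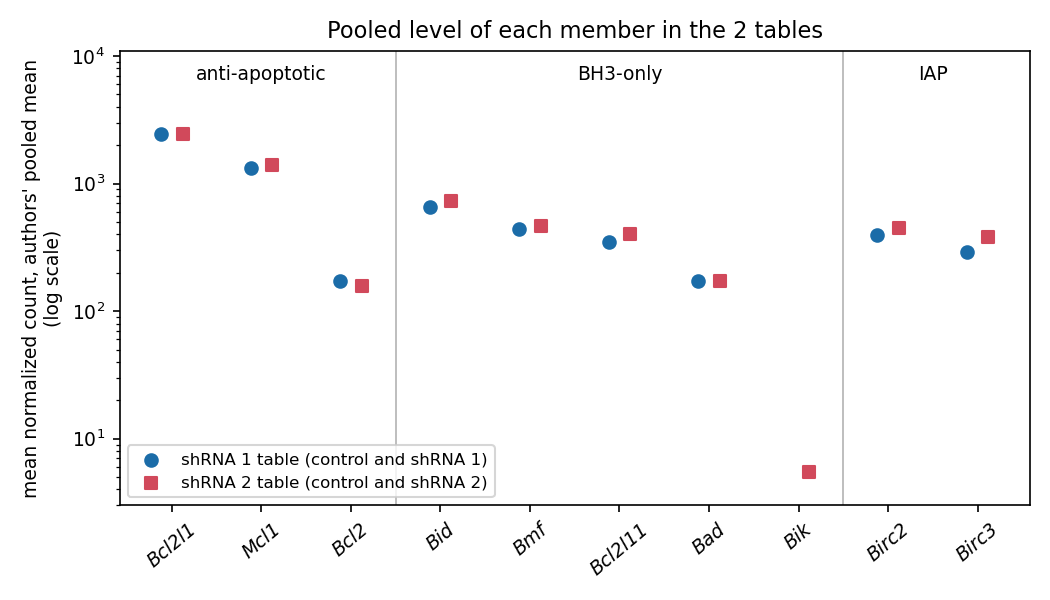
Authors' mean normalized count of each of the 10 members on a log scale, as circles for the table of control and shRNA 1 libraries and squares for the table of control and shRNA 2 libraries, with no error bars because the values are pooled. *Bcl2l1* and *Mcl1* lie above 1000 in both tables, *Bik* has 1 value of 5.53, and the widest gap between circle and square among the other genes is that of *Birc3* (289 and 384).

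The members were set beside 32 other genes of the apoptosis pathway, of which 28 were listed in both tables and 4 in neither (*Bcl2a1a*, *Bcl2a1b*, *Bcl2a1d* and *Hrk*). Per kb in the table of shRNA 2, *Bcl2l1* and *Mcl1* took the first and the second place among the 38 listed genes. *Tnfrsf1a*, the main TNF receptor, followed at 302 per kb. *Xiap*, which inhibits caspases directly, at 208 per kb, and *Casp8*, the caspase that cleaves Bid, at 195, were the neighbours of *Bid*. *Bak1*, an effector, at 152, and *Htra2*, a mitochondrial protease that antagonizes IAPs, at 133, stood on either side of *Birc2*.
*Tnfrsf10b*, a TRAIL receptor, at 104, and *Bcl2l2*, the anti-apoptotic gene of Bcl-w, at 85.3, flanked *Bmf* and *Bad*. *Ripk1*, a kinase of the TNF receptor complex, at 80.5, and *Casp2*, at 64.7, flanked *Birc3*. *Traf2*, an adaptor that binds cIAP1 and cIAP2, at 55.2, and *Tradd*, another adaptor of that complex, at 47.2, flanked *Bcl2l11*. *Casp9*, the caspase of the apoptosome, at 31.1, and *Bcl2l10*, at 5.02, enclosed *Bcl2* and *Bik* at the lower end. In the table of shRNA 1 *Bcl2l1*, *Mcl1* and *Tnfrsf1a* kept the first places, but the order differed for most other members. *Pmaip1* (209) and *Casp8* (189) were above *Bid* (186), and *Htra2* (129) was above *Birc2* (125). *Bcl2l2* (89.7) was above *Bad* (85.2) and *Bmf* (83.3), and *Tradd* (46.4) above *Bcl2l11* (43.3). *Apaf1* (62.9) came next above *Birc3* (57.8). With no spread between libraries, it cannot be said which of these neighbours differ.

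**Figure D2:**
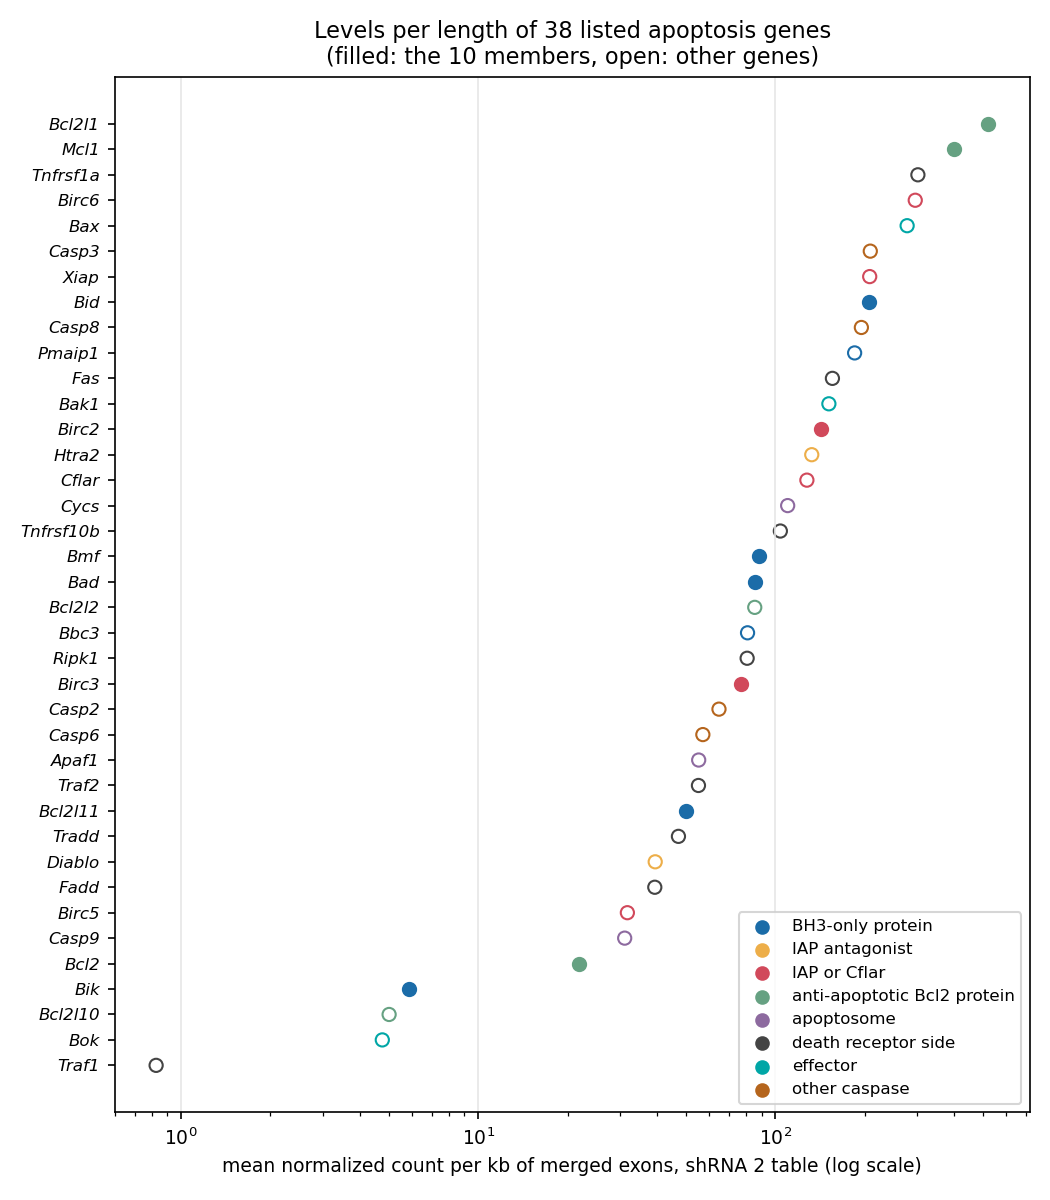
Mean normalized count per kb of merged exons in the table of shRNA 2, on a log scale, for the 38 listed apoptosis genes in order of level, with colours for their roles, filled circles for the 10 members and open circles for the others. *Bcl2l1* (521) and *Mcl1* (399) lead, while *Bcl2* (21.8) and *Bik* (5.86) lie among the 5 lowest genes.

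The pooled means of the 2 tables can also be compared with each other. Each table holds control libraries and those of 1 hairpin, so a gene that is higher with shRNA 2 than with shRNA 1 has a higher pooled mean in the table of shRNA 2, and the controls common to both make the ratio smaller than that between the hairpins. All 3 control libraries carry the same group label. The label text of 2 of them, however, names tables of further hairpins, other than shRNA 1 and shRNA 2. That both tables used here hold the same controls was therefore assumed. The log2 ratio was centred on its median of 0.07 over the 11451 genes with a pooled mean of at least 10 in both tables, and a ratio beyond 0.25 either way was counted. This is a difference between 2 pooled values, with no replicate check and no test.

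Of the 9 members with both values, *Birc3* alone passed this limit, a count close to what the share of 14.4% over all genes would give. Its centred log2 ratio was 0.33, a factor of 1.26 in the pooled mean, at percentile 96.4 of all genes. With common controls this corresponds to a mean of 151 more normalized counts per library with shRNA 2 than with shRNA 1, beside a pooled mean of 289 in the table of shRNA 1. The same ratio of *Birc3* lay above the 5% to 95% range of the 6491 genes with pooled means from 100 to 1000. This range ran from -0.26 to 0.22, and 9.29% of these genes passed the limit.

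The other 8 members lay between -0.22 and 0.13, inside that range. *Bcl2l11* (0.13), *Birc2* (0.11) and *Bid* (0.08) had the higher centred log2 ratios. *Bmf* (0.0085), *Mcl1* (-0.01), *Bcl2l1* (-0.05) and *Bad* (-0.07) were close to the median gene. *Bcl2* had the lowest centred log2 ratio, -0.22, at percentile 9.73 of all genes. Over the 9 members, 5 ratios were above 0 and 4 below, with a median of 0.0085, where the median of all genes is 0 by construction. The signs of the ratios nearest to 0 depend on the centring.

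Of the other pathway genes, 25 had pooled means of at least 10 in both tables, with a median centred log2 ratio of -0.03. Among these, 1 was above and 3 were below the limit, which 14.4% of all genes passed, a similar share. *Bbc3*, which encodes the p53-induced BH3-only protein Puma, was the one above, with pooled means of 110 and 162 and a centred log2 ratio of 0.49. *Birc5*, the gene of survivin, an IAP of dividing cells, had pooled means of 132 and 109 and a ratio of -0.35.
*Apaf1*, the scaffold of the apoptosome, had pooled means of 568 and 499 and a ratio of -0.26. *Pmaip1*, the gene of the BH3-only protein Noxa, had 554 and 490 and a ratio of -0.25, just past the limit. The IAP genes *Birc6* and *Xiap* had ratios of -0.01 and -0.03, and *Cflar* had -0.20. The IAP members *Birc2* and *Birc3* lay the other way, at 0.11 and 0.33. The 3 listed genes with pooled means under 10 were *Bcl2l10* (5.18 and 6.12), *Bok* (3.22 and 6.82) and *Traf1* (3.92 and 4.19), which were not compared.

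**Figure D3:**
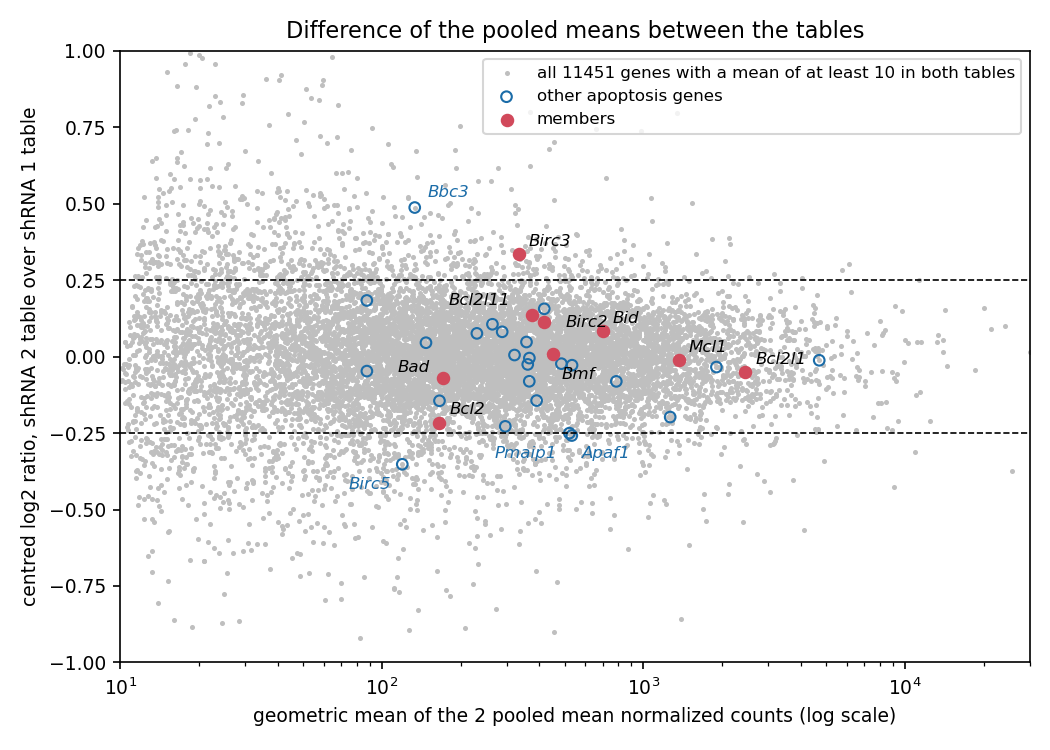
Centred log2 ratio of the pooled means, table of shRNA 2 over table of shRNA 1, against their geometric mean on a log scale, for 11451 genes (grey), the 9 members with both values (red) and 25 other apoptosis genes (open blue circles), with dashed lines at 0.25 and -0.25 and 42 grey genes outside the axes. *Birc3* (0.33) is the member above the upper line, and the other members lie between -0.22 and 0.13.

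3 members share exonic sequence with a gene on the opposite strand. The overlap covers 25.8% of the merged exons of *Bad* (with *Gpr137*), 17.7% of those of *Bid* (with *Bcl2l13*) and 7.76% of those of *Bcl2* (with *D630008O14Rik*). The libraries were described as strand-specific, but the strand setting of the counting is not given in the sources used here, so reads of these 3 genes and of their partners may not be told apart.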

How the data were processed

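Per the labels and the study's methods, the authors aligned trimmed reads to mm9 (TopHat2), retained pairs that mapped uniquely, obtained counts per GENCODE M1 gene (HTSeq) and analysed them in DESeq2 (version 1.8.2, default settings). Each of the 2 deposited tables (13424 and 13478 genes) holds the mean normalized count per gene, a pooled signal over the libraries of 1 comparison. The means differ between the tables for every shared gene. Each table pools the libraries of a different hairpin, so this does not show whether the tables were scaled separately. The tables also hold the authors' own log2 fold changes, their errors, test statistics and p-values, which were not used. Libraries were grouped by their titles.

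All identifiers matched GENCODE M1 on NCBIM37, the assembly of mm9. Levels were divided by the merged exon length and ranked among all listed genes. The ratio of the pooled means was centred on the median of genes that reached a mean of 10 in each table. It was tried on simulated data with known changes well past the limit, in genes of at least 100 and with common controls built in. That trial cannot speak to ratios near the limit or to the assumption of common controls. Without values per library, no test across libraries was made and no replicate was left out. *Trf* and *Emr1* stand for the markers Tf and Adgre1.

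The members and lists were chosen with earlier results of these data known. Of the pathway list, 1 gene is not reported here and was left out of its counts. Genes named are the members, *Srrm2*, the 3 highest pathway genes per kb in the table of shRNA 2, those within 1 place of a member in that order, and those past the limit of 0.25 on the ratio. *Birc6*, *Cflar*, *Bok*, *Traf1*, the unlisted pathway genes, the overlapping genes and the markers printed were named after their values were seen. Alternatives were other lengths, gene sets, centrings, limits and minimum means. Python 3.11.15, numpy 2.4.6, pandas 2.3.3, Biopython 1.88 and matplotlib 3.10.9 were used.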

Additional observations from a re-analysis of the deposited data

How the results depend on the processing

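In the table of shRNA 2, 8 of the 10 members were above the median level per kb, 8 with the longest transcript or among protein-coding genes, 9 with no length correction and 7 among those that reached a mean of 10 in each table. With the longest transcript 2 members changed place among the 10, and 4 with no length correction. The count of 1 member past the limit on the ratio between tables became 4 at a limit of 0.1 and 0 at 0.5, and stayed at 1 under the other centrings and minimum means. The quartiles of the centred ratio over all 11451 genes were -0.10 and 0.10, so ratios past 0.1 were common among all genes. The share of all genes past 0.1 or 0.5 was not counted. *Birc3* had a log2 ratio of 0.41 without centring, and of 0.35 and 0.34 when centred on the table totals and on genes of at least 100. Without centring 3 of 9 members changed sign (*Bcl2l1*, *Mcl1* and *Bad*), and *Mcl1* alone did with the table totals. No paired analysis was possible because the columns are pooled over libraries and carry no replicate. The precision of single genes cannot be given from pooled means, and *Bik*, at a mean of 5.53, rests on few reads.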
